A study of Homo sapiens with 4 samples.

Results

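The zinc finger genes of chromosome 7q11.21 form a cluster near the centromere of the long arm, and the accessibility of their promoters was compared between MORC2 knockout (KO) and wild-type (WT) cells. The members were the rows of the promoter count table whose NCBI Gene ID maps to ZNF727, ZNF735, ZNF679, ZNF736, ZNF680, ZNF107, ZNF138, ZNF273, ZNF117 or ZNF92. All 10 were present among 28775 rows, and all 10 passed the filter on low counts that left 27647 promoters to test. In ATAC-seq the transposase Tn5 inserts adapters into exposed DNA, so that more fragments at a promoter mean more open chromatin there. HEK293T, an immortalised line from human embryonic kidney, was the source of all cells. The design had 2 WT libraries and 2 MORC2 KO libraries, each KO library from a bulk pool of cells edited with Cas9 protein and its own guide RNA, so that guide and KO replicate cannot be told apart and no clone was isolated. The sample titles name no other treatment. The KO cells had been electroporated and passaged, and the methods describe no mock-electroporated WT cells, so that these steps cannot be told apart from the edit.

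Most genes of this kind encode KRAB zinc finger proteins. An array of zinc fingers binds DNA, often within retrotransposons, and the KRAB domain recruits the corepressor TRIM28 and the histone methyltransferase SETDB1, which deposit the silencing mark H3K9me3. The genes arose by repeated duplication and lie in clusters that can carry H3K9me3 themselves, while their promoters can stay open. MORC2 is an ATPase that compacts DNA and works with the silencing complex HUSH, which reads H3K9me3.

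The cluster split into promoters that were open in both groups and promoters that were nearly closed in both. ZNF736, ZNF680, ZNF107, ZNF138 and ZNF92 held from 42.9 to 58.2 CPM (fragment counts scaled to library size with TMM factors) over the 4 libraries. ZNF727, ZNF735, ZNF679, ZNF273 and ZNF117 held from 1.87 to 6.44 CPM, and no member lay between. None of the 10 passed the test of KO against WT (edgeR quasi-likelihood, adjusted p under 0.05), where 4.45% of all tested promoters passed, 3.45% as higher in KO and 0.995% as lower.

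Because the members are duplicates of one another, their promoter sequences were set beside their levels. RefSeq windows on GRCh38.p14, from 250 bases before to 50 after the gene start, were found for all 10 members, with a second start for ZNF273. The fragments had been aligned to the telomere-to-telomere assembly CHM13, and the window counted for each row on that assembly was not given. The windows were searched on both strands for exact matches to 3 words seen in several of them. ATGCAAAT is the octamer that POU factors bind, CCAATCAG holds the CCAAT box of NF-Y, and CTTCCGG holds the core of an ETS site. They were chosen after the levels and windows had been seen. The words do not overlap one another in the member windows. Below are the 250 bases before the start, 5′ to 3′ on the gene's strand, with these words in capitals. ZNF138 (chr7:64794178-64794427, plus strand) is shown as an open promoter of the common type. ZNF736 (chr7:64313711-64313960, plus strand) and ZNF727 (chr7:64045184-64045433, plus strand) are a similar pair of which the first was open and the second nearly closed. ERV3-1-ZNF117 (chr7:65006747-65006996, minus strand) is the readthrough start of ZNF117, and ZNF273 second start (chr7:64903023-64903272, plus strand) lies inside the span of ZNF273.
ZNF138: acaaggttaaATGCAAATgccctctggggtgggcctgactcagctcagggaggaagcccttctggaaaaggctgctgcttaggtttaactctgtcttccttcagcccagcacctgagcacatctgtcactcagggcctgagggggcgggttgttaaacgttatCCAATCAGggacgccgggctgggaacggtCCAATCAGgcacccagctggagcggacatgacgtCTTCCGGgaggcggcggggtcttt
ZNF736: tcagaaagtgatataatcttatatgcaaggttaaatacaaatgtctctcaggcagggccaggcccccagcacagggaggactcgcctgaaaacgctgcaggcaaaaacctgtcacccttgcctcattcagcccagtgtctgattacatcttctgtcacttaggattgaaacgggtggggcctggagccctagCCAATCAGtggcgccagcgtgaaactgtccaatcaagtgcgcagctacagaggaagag
ZNF727: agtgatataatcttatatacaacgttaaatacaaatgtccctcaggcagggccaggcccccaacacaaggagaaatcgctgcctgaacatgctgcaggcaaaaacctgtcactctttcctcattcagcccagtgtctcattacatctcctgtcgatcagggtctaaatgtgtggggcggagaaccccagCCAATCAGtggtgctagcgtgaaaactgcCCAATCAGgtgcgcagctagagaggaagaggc
ERV3-1-ZNF117: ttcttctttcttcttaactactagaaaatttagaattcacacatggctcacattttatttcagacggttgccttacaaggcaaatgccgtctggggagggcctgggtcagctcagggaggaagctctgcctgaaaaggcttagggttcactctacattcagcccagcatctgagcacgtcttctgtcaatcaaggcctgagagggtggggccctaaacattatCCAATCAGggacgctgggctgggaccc
ZNF273 second start: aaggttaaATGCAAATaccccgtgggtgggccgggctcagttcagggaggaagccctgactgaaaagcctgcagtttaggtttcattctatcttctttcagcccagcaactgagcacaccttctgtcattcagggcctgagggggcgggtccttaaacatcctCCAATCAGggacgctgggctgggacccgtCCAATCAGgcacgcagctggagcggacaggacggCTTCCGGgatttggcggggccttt

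The windows of ZNF680, ZNF107, ZNF138 and ZNF92 were of one type. Their 6 pairs aligned over 280 to 304 columns with an identity of 80.9% to 85.4%. Each held ATGCAAAT, then 2 copies of CCAATCAG whose first bases lay 29 apart. A CTTCCGG word began 34 bases after the first base of the second copy. The second start of ZNF273 had the same arrangement and aligned to these 4 at 83.8% to 86.7%, whereas its first start had none of the words and aligned over no more than 18 columns. A window of ERV3-1 (chr7:65006638-65006937, minus strand, not shown) overlaps that of the readthrough transcript. It lacked ATGCAAAT but kept the pair, the spacing and the CTTCCGG word, with a median identity of 82.6% to the first 4. The readthrough window had the same words and spacing. Its second CCAATCAG begins at base 3 and its CTTCCGG at base 37 of the transcript, past the bases shown above.

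ZNF736 and ZNF727 formed another type. They aligned to each other over 298 columns at 86.2% identity, and ZNF736 aligned to the first 4 at only 65.4% to 70.7%. ZNF727 held both copies of CCAATCAG and no CTTCCGG, while ZNF736 held 1 exact copy of CCAATCAG and a CTTCCGG that begins 38 bases into the transcript. In place of the second copy ZNF736 reads CCAATCAA, which differs in the last base and keeps the CCAAT box. ZNF735, ZNF679 and ZNF117 held none of the words. ZNF735 aligned to the first 4 over 182 to 193 columns at 68.7% to 75.1%, and ZNF679 and ZNF117 over no more than 11 columns. The RefSeq window of ZNF117 lies within the spans of ERV3-1 and ERV3-1-ZNF117.

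CTTCCGG was thus in the windows of all 5 open members and, apart from the second start of ZNF273, in none of the 5 nearly closed ones. It was in 10.3% of all 35116 RefSeq windows, ATGCAAAT in 1.77%, CCAATCAG in 3.97%, and 2 or more copies of CCAATCAG together with CTTCCGG in 0.0911%. Among tested genes with a single window, the 2020 with CTTCCGG had a median of 35.4 CPM in WT, against 21.0 over all 14834. The median was 7.52 CPM with ATGCAAAT and 33.5 CPM with CCAATCAG. With 2 or more copies of CCAATCAG it was 20.9 CPM, and with CTTCCGG as well 21.2 CPM (22 genes). CTTCCGG itself holds a CpG dinucleotide, and these levels were not matched for CpG content. Other promoters with 2 or more copies of CCAATCAG and CTTCCGG spanned a wide range of levels. ATGCAAAT was not required of them. FUT8, on chromosome 14, was at 47.2 CPM and ZNF195, on chromosome 11, at 38.2 CPM, both named after their values were seen. Of 11 zinc finger genes on chromosome 19 with the paired CCAATCAG and CTTCCGG, 7 lay under 10 CPM in WT, and their levels ranged from 1.71 to 29.6 CPM. These levels, from several chromosomes, were not scaled to DNA copy number.

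**Figure D1:**
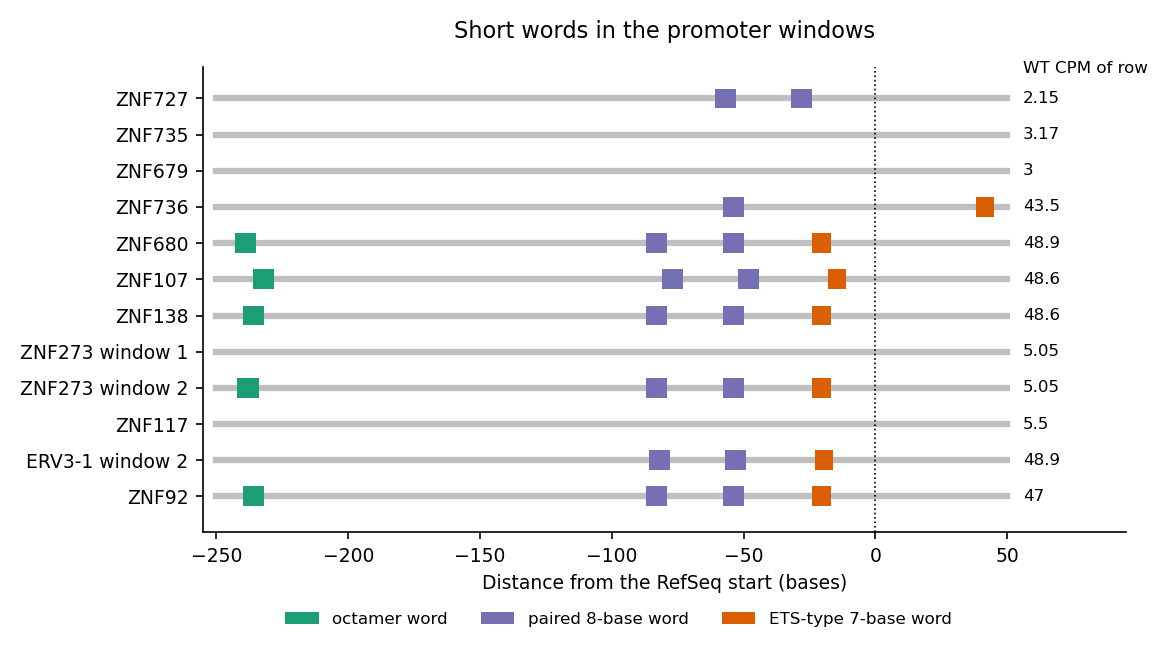
Positions of ATGCAAAT (octamer word), CCAATCAG (paired word) and CTTCCGG (ETS-type word) in RefSeq windows, drawn as bars against the distance from the gene start in bases, with the mean CPM of the row in WT at the right. ZNF680, ZNF107, ZNF138, ZNF92 and the second start of ZNF273 share one arrangement, and the level printed beside both ZNF273 windows is that of its single row, 5.05 CPM.

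Members with like numbers of CpG dinucleotides differed in level. Among tested genes with a single window, the median level in WT was 5.84 CPM at 5 to 9 CpG dinucleotides, 12.6 CPM at 10 to 14, and 36.6 CPM at 20 or more. ZNF107 (8 CpG) and ZNF736 (9 CpG) were at 48.6 and 43.5 CPM, although 71.4% of genes with 5 to 9 lay under 10 CPM. ZNF727, with 8 CpG, was at 2.15 CPM, and ZNF735, with 10 CpG, at 3.17 CPM. The first start of ZNF273 held 25 CpG, a class in which 9.8% of genes lay under 10 CPM, and its row was at 5.05 CPM. Its second start held 13 CpG, a class with a median of 12.6 CPM in which 44.4% lay under 10 CPM, and which of the starts the row counts is not given.

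**Figure D2:**
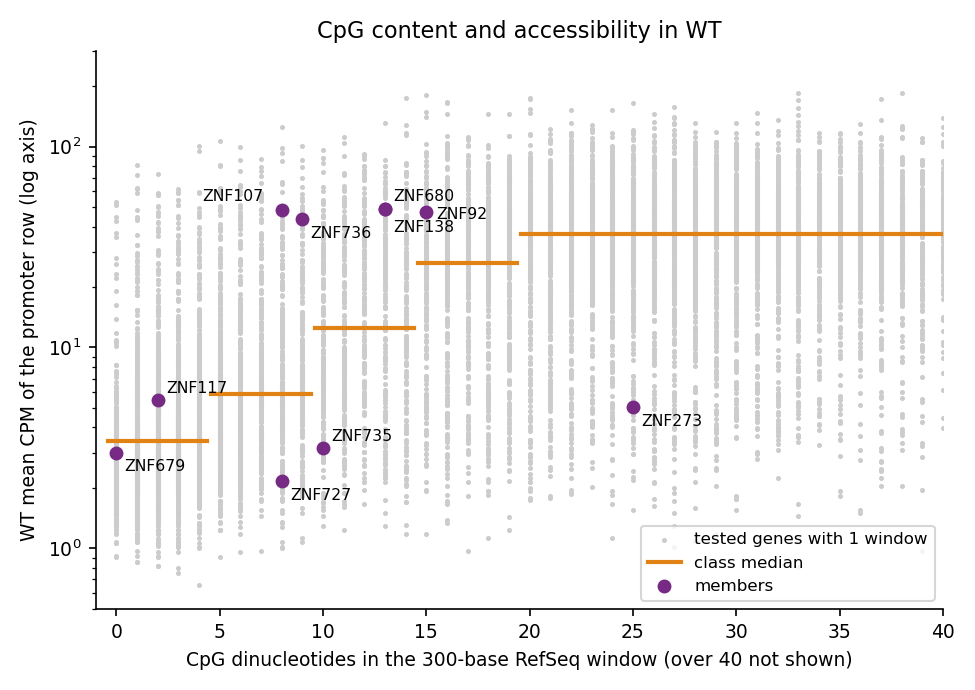
Mean CPM in WT (log axis) against the number of CpG dinucleotides in the RefSeq window, for tested genes with 1 window (grey), the median of each CpG class (orange) and the 10 members (purple, first start for ZNF273). ZNF107 and ZNF736 lie far above the median of their class, 5.84 CPM, and ZNF273 far below that of the class of its first start, 36.6 CPM, while its second start (13 CpG, not plotted) falls in a class with a median of 12.6 CPM.

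The depth behind these values differed between libraries. The total promoter count was from 9435801 to 15152636 fragments, of which mitochondrial rows took 20.6% to 35.1%, and KO replicate 2 was the deepest library with the lowest mitochondrial share. The MORC2 row, which does not measure the edit, was higher in KO by 0.43 on the log2 scale (SE 0.087, edgeR adjusted p 0.000279). Of the promoters chosen as open in the HEK293T lineage, NEFL, LHX1 and NEFM held 12.3 to 33.8 CPM in WT and PAX2 only 7.16 CPM. The promoters of ALB, PTPRC, CD3E, HBB and MYH7, chosen for other cell types, held 1.71 to 6.82 CPM.

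Among the open members, ZNF138 had the smallest p. In KO replicates 1 and 2 it held 575 and 993 fragments, and in WT 462 and 445. The mean levels were 55.5 ± 3.88 CPM for KO against 48.6 ± 0.925 CPM for WT (SD, n = 2 each). Each KO value exceeded each WT value. The log2 fold change was 0.20 (SE 0.071, edgeR adjusted p 0.0780), with a 95% interval of 0.061 to 0.34. KO replicate 2 lay further from the WT mean (0.26) than KO replicate 1 (0.12). The log2 fold change was 0.28 without KO replicate 1 and 0.12 without KO replicate 2.

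ZNF736 showed a difference of the same size with less spread. It held 551 and 846 fragments in KO and 426 and 387 in WT, which is 50.5 and 49.6 CPM in the KO libraries and 44.2 and 42.9 CPM in the WT libraries. The KO libraries did not overlap the WT libraries, and the distance between the groups was larger than that within either. The log2 ratio of KO to WT was 0.20 (SE 0.074, edgeR adjusted p 0.0941), and it stayed between 0.18 and 0.22 with any 1 library removed.

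ZNF680 held 587 and 982 fragments in KO and 509 and 405 in WT. Its WT libraries were uneven, at 52.9 and 44.9 CPM, while KO held 53.8 and 57.6 CPM. All the KO values were above the WT values, but KO replicate 1 exceeded WT replicate 1 by under 1 CPM. Its log2 ratio of 0.19 (SE 0.071, edgeR adjusted p 0.0920) was 0.32 without WT replicate 1 and 0.084 without WT replicate 2.

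ZNF107 and ZNF92 differed less. ZNF107 held 562 and 904 fragments in KO and 486 and 422 in WT, or 51.5 and 53.0 CPM against 50.5 and 46.7 CPM. Its groups did not overlap, and the log2 ratio was 0.11 (SE 0.072, edgeR adjusted p 0.401). ZNF92 held 519 and 888 fragments in KO and 461 and 417 in WT, and KO replicate 1, at 47.6 CPM, lay between the WT libraries at 47.9 and 46.2 CPM. Its log2 fold change was 0.093 with a 95% interval of −0.050 to 0.24, so that the interval reached from a fold of 0.966 to 1.18. The value for ZNF92 was 0.023 without KO replicate 2 and 0.17 without KO replicate 1, and that for ZNF107 was 0.054 without WT replicate 2 and 0.17 without WT replicate 1.

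The levels of the open members were alike. In WT their order was ZNF680 (48.9 CPM), ZNF138 (48.6 CPM), ZNF107 (48.6 CPM), ZNF92 (47.0 CPM) and ZNF736 (43.5 CPM). The first 4 overlapped their neighbours in this order between WT libraries, and ZNF736 lay below ZNF92 in both. These are levels per promoter window, which the study describes as 2 kb long for every gene.

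**Figure D3:**
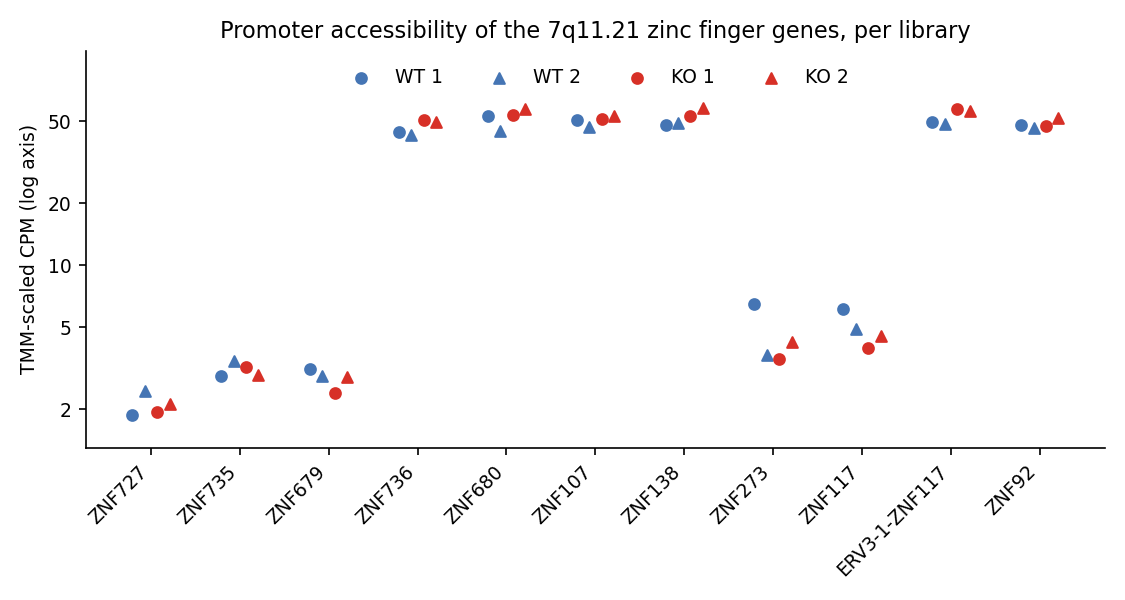
TMM-scaled CPM on a log axis for the 10 members and the readthrough row ERV3-1-ZNF117 in gene order, with WT libraries in blue and KO libraries in red. The 5 open members and ERV3-1-ZNF117 lie between 42.9 and 58.2 CPM in every library, and the other 5 members between 1.87 and 6.44 CPM.

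ZNF117 and ZNF273 were the least closed of the other 5 and had the lowest fold changes of the cluster. ZNF117 held 43 and 77 fragments in KO and 59 and 44 in WT, or 3.94 and 4.51 CPM against 6.13 and 4.87 CPM. Both KO libraries lay below both WT libraries, yet the log2 ratio of −0.36 (SE 0.21, edgeR adjusted p 0.315) had a 95% interval of −0.78 to 0.051. It was −0.18 without WT replicate 1, −0.51 without WT replicate 2 and −0.17 with loess offsets on abundance. ZNF273 held 38 and 72 fragments in KO and 62 and 33 in WT. Its WT libraries, at 6.44 and 3.65 CPM, spanned both KO libraries, at 3.49 and 4.22 CPM. The log2 fold change was −0.37 (SE 0.22, edgeR adjusted p 0.322), and it turned to 0.10 without WT replicate 1 and was −0.71 without WT replicate 2. These adjacent rows had counts within 25% of each other in every library, although their RefSeq windows do not overlap.

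The low row of ZNF117 stood beside an open start that it shares with ERV3-1, the envelope gene of an endogenous retrovirus, through readthrough transcription. The rows of ERV3-1-ZNF117 and ERV3-1 had identical counts, with 628 and 954 fragments in KO and 477 and 436 in WT. The mean at that start was 56.8 ± 1.17 CPM for KO against 48.9 ± 0.882 CPM for WT (SD, n = 2 each), a level like that of the open members. Its log2 fold change was 0.21 (SE 0.071), and it did not pass the test either (edgeR adjusted p 0.0592).

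ZNF727, ZNF735 and ZNF679 were near the lower end of all promoters tested. ZNF727, which RefSeq also lists under a pseudogene symbol, held 21 and 36 fragments in KO and 18 and 22 in WT. ZNF735, likewise once named as a pseudogene, held 35 and 50 in KO and 28 and 31 in WT. ZNF679 held 26 and 49 in KO and 30 and 26 in WT. The groups overlapped for ZNF727 and ZNF735, and the KO libraries of ZNF679 lay just below its WT libraries, at 2.38 and 2.87 CPM against 3.12 and 2.88 CPM. Their log2 fold changes were −0.074 (SE 0.31), −0.055 (SE 0.26) and −0.16 (SE 0.27), and all of these turned positive, to 0.18, 0.18 and 0.077, with loess offsets fitted on abundance. At these counts the 95% interval for ZNF727 reached from a fold of 0.622 to 1.45. It is not adjusted for the number of promoters tested and gives no limit of detection.

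Over the cluster, 0 of 10 promoters passed the adjusted threshold in edgeR, and 3 had an unadjusted p under 0.05 (ZNF138, ZNF736 and ZNF680, all higher in KO), where 20.3% of all tested promoters did and 11.5% did as higher. The same 3 had an adjusted p under 0.1, against 8.13% of all promoters and 5.61% in the higher direction. DESeq2 and limma-trend called 0 members, with 0 and 3 at an unadjusted p under 0.05. Over all tested promoters DESeq2 called 7 and limma-trend 717, so that 0 of 10 in DESeq2 says little about the members. The KO libraries both exceeded the WT libraries at 4 members, against 25.2% of all promoters, and both lay below them at 2, against 25.4%. The median log2 fold change of the members was 0.019, and that of all tested promoters −0.017. It was 0.19 over the 5 open members and −0.16 over the other 5. With loess offsets on abundance these medians were 0.12 and 0.077, so that the second turned positive, and the median of all 10 was 0.10.

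Fold changes also varied with abundance over all promoters, and the members were set beside promoters of like level. The 5 open members fell in the ninth of 10 abundance classes, in which the median log2 ratio of 2765 promoters was 0.075. In that class 8.72% of promoters were called, 8.1% as higher. There 13.2% were higher at an adjusted p under 0.1 and 26.1% at an unadjusted p under 0.05, and in 48.2% the KO libraries both exceeded the WT libraries. ZNF138, ZNF736 and ZNF680 lay at the 89.0th, 88.6th and 87.6th percentile of fold changes in the class, and ZNF107 and ZNF92 at the 61.3rd and 56.5th. The other 5 members fell in the lowest 4 classes, with medians from −0.29 to −0.18, where 1.6% of promoters were called and in 43.1% both KO values lay below WT. ZNF727, ZNF735 and ZNF679 lay above the median of their class, and ZNF273 and ZNF117 below it, at the 29.1st and 17.9th percentile. With the abundance trend removed, the open members kept positive values from 0.025 to 0.13, and none of the 10 had an unadjusted p under 0.05.

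**Figure D4:**
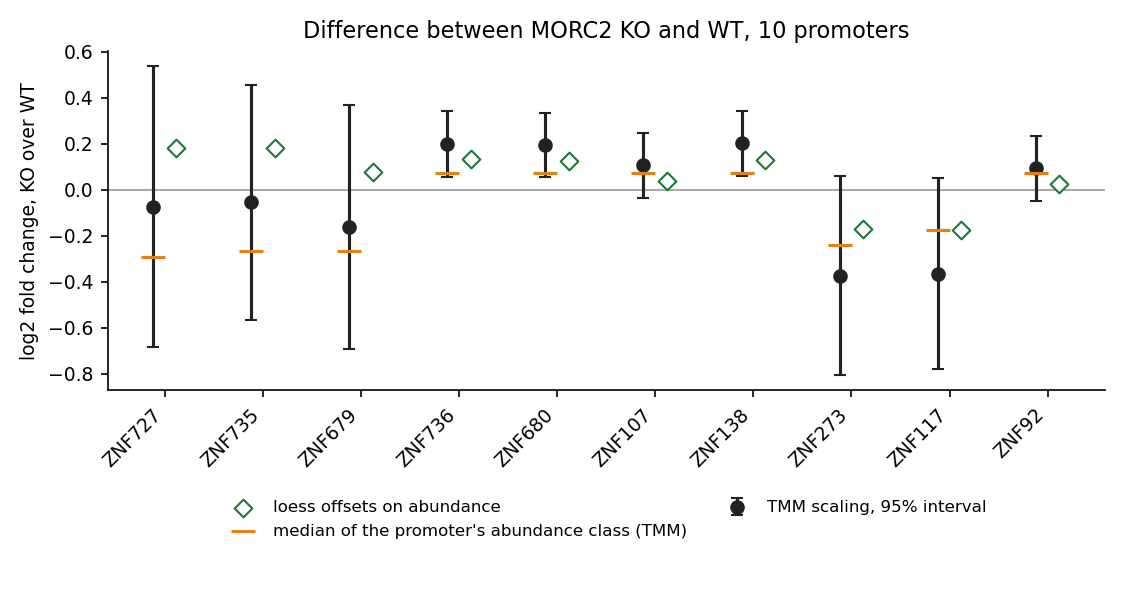
Log2 fold change of KO over WT for the 10 members in gene order, with 95% intervals from edgeR (black), the value with loess offsets on abundance (green) and the median of the promoter's abundance class (orange). The open members lie between 0.093 and 0.20, and ZNF727, ZNF735 and ZNF679 change sign with the offsets.

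Flanking promoters were described by their counts and medians alone. The 20 tested rows on either side and the 10 rows between members gave 50 flanking rows, of which 28 were higher in KO, with a median log2 fold change of 0.021. The 20 rows of at least 20 CPM had a median of 0.096 (0.025 with loess offsets on abundance), with 16 above 0, and the 30 rows under 20 CPM a median of −0.059, which turned to 0.10 with the offsets. Only LINC00174, a long noncoding RNA, passed the test among them. It held 54 and 54 fragments in KO and 62 and 59 in WT, which is 4.95 and 3.17 CPM against 6.44 and 6.53 CPM. KO replicate 2, the deepest library, lay further from the WT mean (−1.03 on the log2 scale) than KO replicate 1 (−0.39). The KO to WT log2 ratio of LINC00174 was −0.74 (SE 0.21, edgeR adjusted p 0.0189). RABGEF1, a guanine nucleotide exchange factor for Rab5, and the overlapping LOC100996437 came next and had nearly the same counts, with log2 fold changes of 0.20 and 0.21 (edgeR adjusted p 0.0546 and 0.0521).

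**Figure D5:**
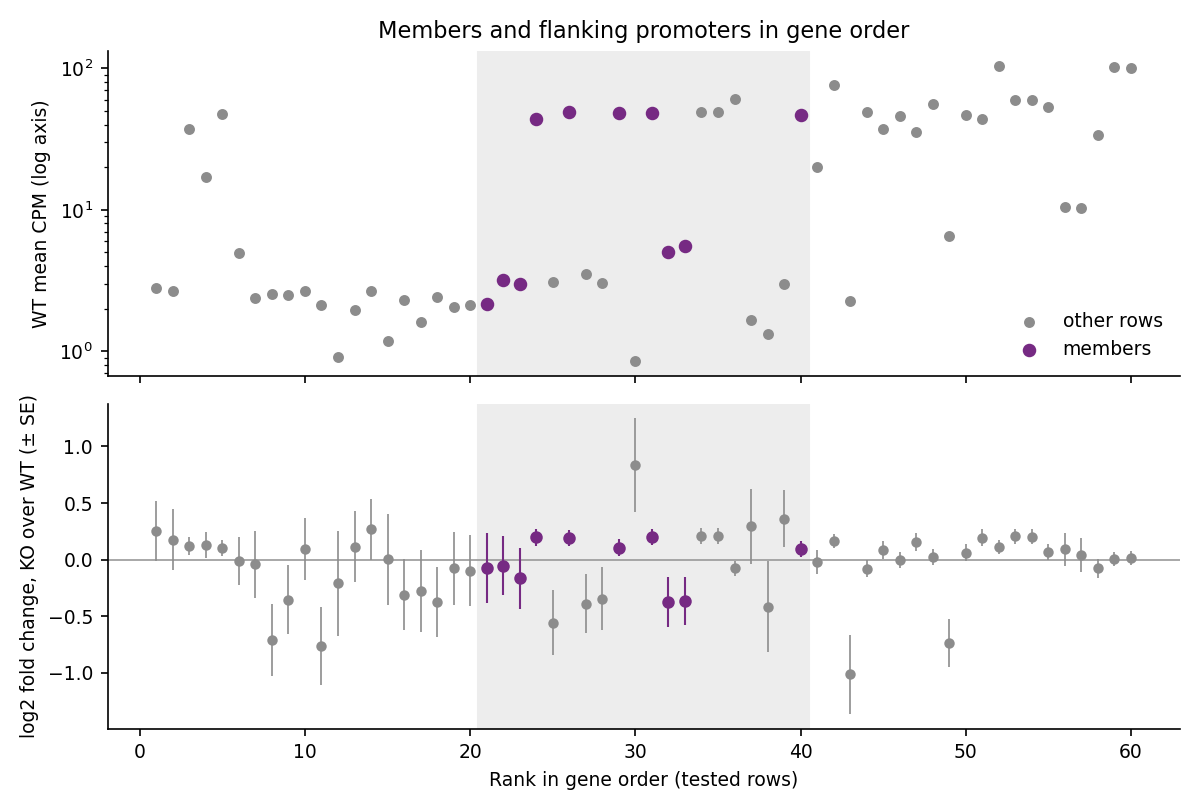
Mean CPM in WT (upper panel, log axis) and log2 fold change of KO over WT with its standard error (lower panel) for members (purple) and flanking rows (grey), by rank in gene order, with the interval from ZNF727 to ZNF92 shaded. Open and nearly closed promoters alternate inside the interval, and values under 10 CPM scatter more widely around 0 than the open ones.

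The related cluster on chromosome 19p12 had lower levels. CPM was not scaled to DNA copy number, and whether copies differ between the chromosomes was not tested. Of 33 zinc finger genes listed there, 32 were tested, 21 lay under 10 CPM in WT, 11 between 10 and 30 CPM and 0 above, with a highest level of 29.8 CPM. By contrast 5 of the 10 promoters on 7q11.21 lay above 30 CPM and 0 between 10 and 30 CPM. In the 19p12 list 1 promoter was called higher (ZNF91) and 1 lower (ZNF486). The median log2 fold change of that list was −0.14, and −0.010 with loess offsets on abundance. Over all 600 tested ZNF symbols 51 (8.5%) were called higher. Of the 7 genes of HUSH and its partners, including TRIM28 and SETDB1, 3 were called higher (MORC2 itself, and TASOR and PPHLN1, both subunits of HUSH) and 0 lower. Over all tested promoters 3.45% were called higher and 0.995% lower. The median log2 fold change of these 7 was 0.20, and 0.15 with loess offsets on abundance.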

How the data were processed

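ATAC-seq libraries of HEK293T cells, 2 of MORC2 KO and 2 of WT, were analysed. Per the methods of the study, reads were trimmed, aligned with bowtie2 to CHM13, filtered to proper pairs with a mapping quality of at least 30, and freed of duplicates with Picard. The authors deposited raw counts of fragments per promoter, without normalisation, 1 row per NCBI Gene ID. The methods count fragment midpoints in small windows and define promoters as 2 kb around the start, and the processing notes also name featureCounts. Which of these made the table is not given in the sources used here. The file has no unused sample columns. Symbols and gene order came from a RefSeq table on GRCh38.p14, which matched 28763 of 28775 IDs, and promoter sequences from RefSeq windows on the same assembly. The deposited list of WT peaks was not used here, because its positions are on CHM13.

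Rows were filtered with filterByExpr, scaled by TMM, and the KO effect was tested in edgeR 4.0.16 (quasi-likelihood F-test, legacy fit, R 4.3.3) over all 27647 rows, with Benjamini-Hochberg adjustment and a threshold of 0.05. Limma 3.58.1 and DESeq2 1.42.0 were alternatives. P-values measure the spread between these libraries, and intervals cover no other error. The fits share that spread across promoters of like level, so that a promoter's own spread enters only in part. With 2 libraries against 2, an exact permutation test cannot give a two-sided p below 0.333, so none was run. Identical stretches of 68 to 78 bases, longer than the 65-base reads, join the windows of ZNF680, ZNF107 and the second start of ZNF273, so that a read inside them matches more than 1 window. Windows were aligned locally with Biopython 1.88. Replicate numbers did not pair the libraries (see the closing section). The members and lists were chosen with earlier results of these data known. All members were named, with any row that shares a member's start, the 3 flanking rows of smallest p, and MORC2. ZNF91, ZNF486, TASOR, PPHLN1, FUT8 and ZNF195 were named after their values were seen. One of the lineage markers is not reported here.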

Additional observations from a re-analysis of the deposited data

How the results depend on the processing

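The count of 0 called members held in all alternatives with 4 libraries at the threshold of 0.05. At an adjusted p under 0.1 it was 3 (ZNF138, ZNF736 and ZNF680), where 8.13% of all promoters passed. With 1 library left out, the spread of its group was taken from the other group. Member calls moved with the library left out, and so did the number called over all promoters. Only effect sizes are therefore given for these fits. The median log2 fold change of the members was 0.16 with total count scaling, which moved the median of all promoters to 0.12, and 0.025 to 0.11 with each library left out. With total count scaling ZNF727 and ZNF735 reversed to 0.069 and 0.088, and with loess offsets ZNF727, ZNF735 and ZNF679 to 0.18, 0.18 and 0.077. Leaving out each library gave −0.26 to 0.12 for ZNF727, −0.17 to 0.065 for ZNF735 and −0.71 to 0.10 for ZNF273. ZNF735 reversed without KO replicate 2 (0.027) and without WT replicate 2 (0.065), and ZNF727 without WT replicate 2 (0.12). ZNF679 ranged from −0.32 without KO replicate 2 to −0.043 without KO replicate 1, and ZNF273 was −0.17 with loess offsets. The cause was not tested. With the replicate number as a block, 0 members were called (3 at an unadjusted p under 0.05), with a median of 0.014. The correlation of deviations between same-numbered libraries was 0.018 over 19833 promoters, and the libraries were therefore not treated as pairs. The block changed no call. Over all promoters 765 were called with the block and 1229 without it, 717 with limma-trend, 833 in the edgeR 4 fit, 787 at a mean count of at least 50 (which removed ZNF727, ZNF735 and ZNF679), 394 with loess offsets, 20 with total count scaling and 7 with DESeq2. Over all member values with 4 libraries, 102 kept direction and call, and the 5 that reversed are those given above. The low counts of ZNF727, ZNF735 and ZNF679 limit what can be detected there.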
